A study of Homo sapiens with 4 samples.

Results

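The 48 genes described here encode the machinery that copies DNA and the enzymes that supply and mark it. They were taken by name, out of 58735 genes measured, by matching the Ensembl IDs of the deposited tables to GENCODE 29 symbols, and all 48 matched 1 ID each. They fall into 11 role groups: the origin recognition complex, the helicase loaders, the MCM2-7 helicase, the factors that activate it, polymerase alpha with primase, polymerases delta and epsilon, the clamp and its loader, Okazaki fragment joining, the single-strand binding protein RPA, nucleotide supply, and the maintenance of DNA methylation. RNA-seq was made from human HT8 cells, labelled as colon cancer tissue. The libraries were 2 of HT8-cas1 cells, genotype PPDPF knockdown, and 2 of HT8 cells, genotype control; what cas1 stands for, how the knockdown was made and whether the line is 1 clone are not stated in the labels.

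Replication starts in G1 phase, when the origin recognition complex, CDC6 and CDT1 load MCM2-7 rings onto DNA. In S phase CDC45 and the GINS complex turn each ring into a moving helicase, behind which polymerases alpha, delta and epsilon copy the strands with the sliding clamp PCNA. Many genes of this machinery are known targets of E2F transcription factors, which RB holds back until a cell commits to division, and colon cancer cells in culture are known to express them at high levels.

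The targeted gene, PPDPF, had 281 and 283 FPKM (reads scaled to exon length and library depth) in the libraries labelled knockdown, against 237 and 266 FPKM in control. Its fold change was 1.12 (limma adjusted p = 0.0940), so its RNA was not lower. It passed as higher in 3 of 13 alternatives: a filter at a mean FPKM of 5, voom on recovered reads, and without control replicate 2 (limma adjusted p 0.0105 to 0.281 over the alternatives). The RNA of the targeted gene thus does not bear out the labels, and its protein was not measured in these data. The group is called by its label throughout. The label of colon cancer was set against 12 colon epithelial markers. Of the 11 tested, KRT8, KRT19, KRT20, VIL1, CDX1 and LGALS4 rose, CDH1 fell, and EPCAM, KRT18, CDX2 and CDH17 did not pass the test. Their sum, of which the keratins KRT8, KRT18 and KRT19 made up most, was 3224 and 3201 FPKM in the libraries labelled knockdown and 2682 and 2875 FPKM in control. The adhesion protein gene CDH1 had 107 and 111 FPKM in the libraries labelled knockdown, against 119 and 121 FPKM in control. The 8 fibroblast markers summed to at most 0.723 FPKM in any library, with 4 of them at 0. The 6 endothelial markers reached at most 0.252 FPKM in sum, with 3 of them at 0. The 10 leukocyte markers summed to 1.49 and 1.51 FPKM in the libraries labelled knockdown and 2.24 and 2.19 FPKM in control, with 5 at 0 and CD14 the highest, at up to 1.86 FPKM. Totals of reads in genes were 17330674 and 17069628 in the libraries labelled knockdown and 17348315 and 19479906 in control. The mitochondrial genome took 2.35% and 2.19% of them in the libraries labelled knockdown, against 2.87% and 2.76% in control. The labels leave unsaid whether the libraries of each group are separate cultures. The p-values therefore measure the spread between libraries, which may be technical.

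Below, levels are FPKM, with mean ± SD over n = 2 libraries a group. A log2 fold change is that of FPKM + 1, labelled knockdown over control, which understates the change of low genes, and folds are on the same scale. A gene rose or fell where limma's Benjamini-Hochberg adjusted p, taken over the 12777 genes whose mean FPKM reached 1, was under 0.05 (two-sided). All 48 genes passed that filter, and the fewest reads of any of them in a library were 155, for POLE2.

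Of the 48 genes, 17 fell and 2 rose, and 29 did not pass the test, so 19 were called, where 29.9% of all genes tested were. The share that fell was 35.4%, where 13% of all genes tested fell, and the share that rose was 4.17%, where 16.8% of all genes tested rose. The genes that fell included both helicase loaders (CDC6 and CDT1) and 4 of 6 MCM2-7 genes (MCM3, MCM4, MCM5 and MCM6). They also included 4 of 6 genes of polymerases delta and epsilon and both of DNA methylation maintenance. In the origin recognition complex 1 of 6 fell, and in polymerase alpha-primase 0 of 4 did. RRM1, the large subunit of ribonucleotide reductase, and RFC1, the large subunit of the clamp loader, were the 2 that rose. The changes were small, since the median log2 fold change of the 48 was -0.12, with a range of -0.56 to 0.46, while the median over all genes tested was 0.001. In bulk RNA, fewer cells in S phase and less of these RNAs per cell cannot be told apart. With any 1 library left out the number that fell was 11 or 12: 11 without knockdown replicate 1, control replicate 1 or control replicate 2, and 12 without knockdown replicate 2.

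Both libraries labelled knockdown lay below both controls for 30 of the 48 genes (62.5%) and above both for 7. Over all genes tested these shares were 33.8% and 35.9%, or 69.7% on either side. Groups that did not overlap, as named for single genes below, were thus common among all genes tested. The fall of 9 genes (CDT1, MCM3, MCM4, MCM5, MCM6, GINS2, DUT, UHRF1 and DNMT1) and the rise of RRM1 passed the test in each of 13 alternative analyses. Of these alternatives, median-of-ratios scaling all but repeated the main fit, because its factor was the same in every library. The plot of all members shows the 19 called genes as filled points, which do not overlap the control squares.

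**Figure D1:**
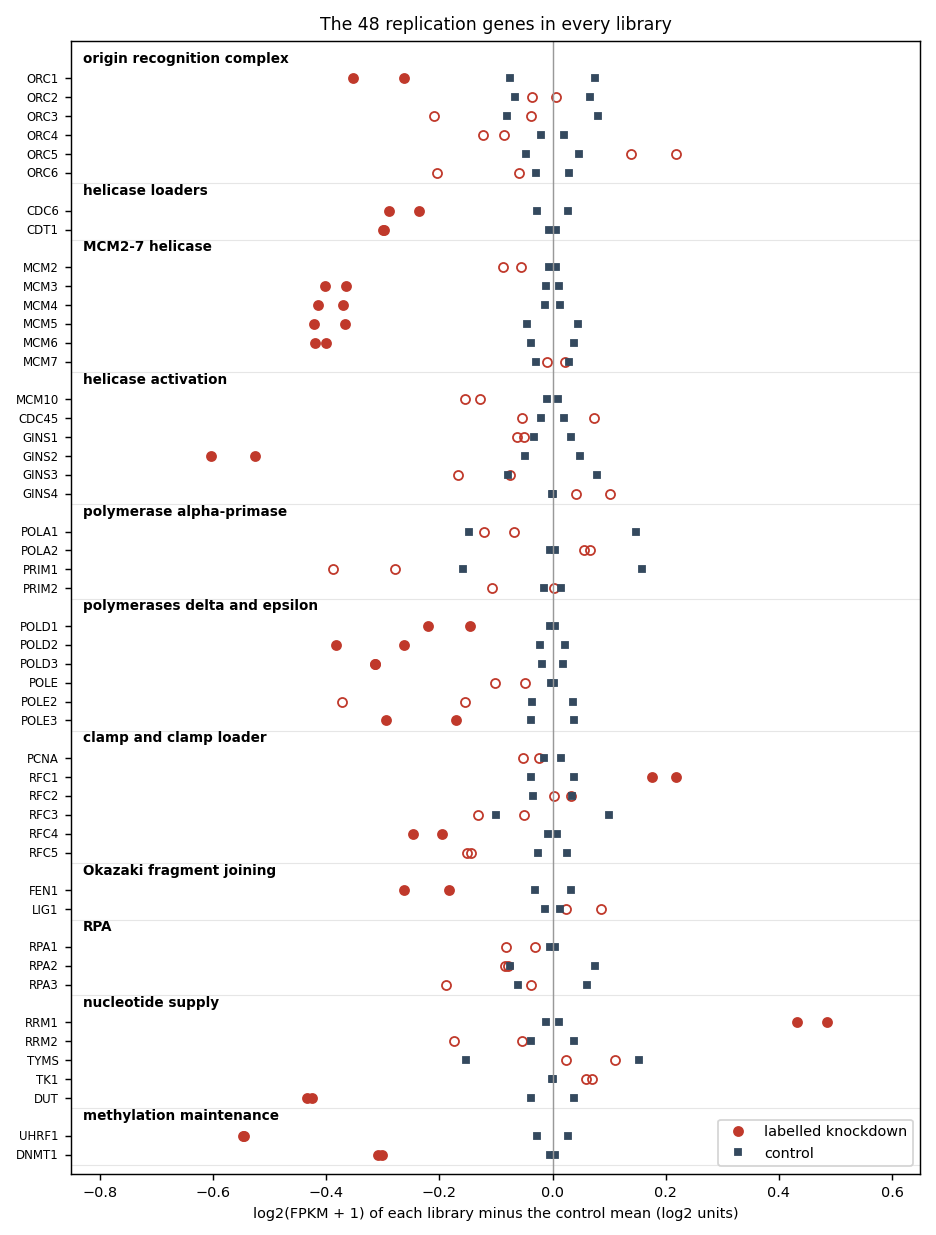
Each row is a gene, and the x axis is log2(FPKM + 1) of a library minus the mean of the 2 control libraries. Circles are the 2 libraries labelled knockdown, filled where the gene passed the test, and squares are the 2 control libraries. GINS2 and UHRF1 lie farthest to the left, at log2 fold changes of -0.56 and -0.55, and RRM1 farthest to the right, at 0.46.

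Promoter sequences are shown for MCM2, MCM3, MCM6, MCM7 and GINS2 because helicase genes that fell and helicase genes that did not pass the test carry the same kind of letters. They come from RefSeq on GRCh38.p14, run 5′ to 3′ on the strand of the gene, and hold 250 bases before the annotated start and 50 from it on. Capitals mark E2F-type letters, searched as TTTCCCGC, TTTCGCGC, TTTGCCGC and TTTGGCGC on both strands; where 2 matches overlap, as in MCM6 and MCM2, the capitals run together. The windows are chr6:52284693-52284992 (MCM3, minus strand), chr2:135876394-135876693 (MCM6, minus strand), chr16:85688905-85689204 (GINS2, minus strand), chr3:127598161-127598460 (MCM2, plus strand) and chr7:100101348-100101647 (MCM7, minus strand). MCM3, MCM6 and GINS2 fell, and MCM2 and MCM7 did not pass the test.
MCM3: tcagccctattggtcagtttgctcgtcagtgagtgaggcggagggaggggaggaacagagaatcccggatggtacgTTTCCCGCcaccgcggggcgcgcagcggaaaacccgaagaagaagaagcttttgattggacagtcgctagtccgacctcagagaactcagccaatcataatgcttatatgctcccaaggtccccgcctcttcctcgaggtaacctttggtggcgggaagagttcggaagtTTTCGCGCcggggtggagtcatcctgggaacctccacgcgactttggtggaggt
MCM6: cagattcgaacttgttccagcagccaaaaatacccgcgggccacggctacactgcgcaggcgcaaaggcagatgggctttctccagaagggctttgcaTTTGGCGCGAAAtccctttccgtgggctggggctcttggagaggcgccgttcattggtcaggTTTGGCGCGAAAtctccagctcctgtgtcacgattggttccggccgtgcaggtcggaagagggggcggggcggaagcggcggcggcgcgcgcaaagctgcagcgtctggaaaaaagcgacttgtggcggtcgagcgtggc
GINS2: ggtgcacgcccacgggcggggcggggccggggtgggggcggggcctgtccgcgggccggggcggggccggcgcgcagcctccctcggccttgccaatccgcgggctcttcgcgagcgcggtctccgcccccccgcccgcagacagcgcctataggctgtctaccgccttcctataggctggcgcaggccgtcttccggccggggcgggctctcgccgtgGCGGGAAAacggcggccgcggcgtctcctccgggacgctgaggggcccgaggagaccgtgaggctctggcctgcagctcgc
MCM2: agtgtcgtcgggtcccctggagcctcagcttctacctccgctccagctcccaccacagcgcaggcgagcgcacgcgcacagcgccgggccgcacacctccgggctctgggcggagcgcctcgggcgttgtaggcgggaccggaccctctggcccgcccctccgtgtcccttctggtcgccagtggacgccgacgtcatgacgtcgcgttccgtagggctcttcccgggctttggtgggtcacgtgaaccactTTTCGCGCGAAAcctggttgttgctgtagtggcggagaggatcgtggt
MCM7: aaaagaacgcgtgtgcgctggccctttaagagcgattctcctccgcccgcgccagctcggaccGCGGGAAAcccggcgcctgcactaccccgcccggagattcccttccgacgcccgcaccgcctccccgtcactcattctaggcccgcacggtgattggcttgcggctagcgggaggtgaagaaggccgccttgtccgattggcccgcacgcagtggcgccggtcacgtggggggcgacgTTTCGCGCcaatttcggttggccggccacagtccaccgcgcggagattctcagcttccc

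RefSeq windows were matched for 42 of the 48 genes; GINS4, MCM4, MCM5, POLD3, RPA2 and RPA3 had no entry. E2F-type letters stood in a window of 21 of the 42 genes (50%), against 3.99% of the 27305 genes in the table, and in 22 of 59 windows, against 3.31% of all 35116 windows. Of the 21 genes with a match, 8 fell, 0 rose and 13 did not pass the test; of the 21 without, 6 fell, 2 rose and 13 did not pass. The median log2 fold change was -0.12 for those with a match and -0.11 for those without. A match is a description of letters and not of a bound site.

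In the origin recognition complex, the ATPase that marks replication origins, 1 of 6 genes fell, 0 rose and 5 did not pass the test. ORC1, the subunit known to come and go with the cell cycle, had 8.55 and 7.98 FPKM in the libraries labelled knockdown, against 9.87 and 11.1 FPKM in control, and the groups did not overlap. That is a fall to 0.808 of control (log2 fold change -0.31, SE 0.07, limma adjusted p = 0.0302), and its call was lost without knockdown replicate 1, knockdown replicate 2 or control replicate 2 (limma adjusted p up to 0.117 over the alternatives). ORC4, the lowest of the complex over all 4 libraries though not in control, where ORC2 averaged 6.02 FPKM, had 5.50 and 5.68 FPKM in the libraries labelled knockdown and 5.98 and 6.18 FPKM in control. ORC2, ORC3 and ORC6 had fold changes of 0.990, 0.918 and 0.912, and ORC5 had 1.13, with 9.60 and 10.2 FPKM in the libraries labelled knockdown and 8.32 and 8.95 FPKM in control (limma adjusted p = 0.0747). The summed level of the complex was 45.8 ± 0.253 FPKM in the libraries labelled knockdown and 49.0 ± 0.0697 FPKM in control.

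Both helicase loaders fell. CDT1, which brings MCM2-7 to origins and is destroyed once S phase begins, had 19.0 FPKM in each library labelled knockdown, against 23.7 and 23.5 FPKM in control (0.813 of control, log2 fold change -0.30, SE 0.03, limma adjusted p = 0.00484). CDC6, the ATPase that closes the ring around DNA with ORC, had 14.1 and 13.6 FPKM in the libraries labelled knockdown and 16.4 and 17.1 FPKM in control. It fell to 0.834 of control (limma adjusted p = 0.0134), and its call was lost without knockdown replicate 2 or control replicate 2 (limma adjusted p up to 0.0651 over the alternatives). The groups did not overlap for either gene. CDT1 per CDC6 was 1.35 and 1.40 in the libraries labelled knockdown and 1.44 and 1.37 in control, and these ratios overlapped.

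Of the 6 subunits of the MCM2-7 ring, the replicative helicase, MCM3, MCM4, MCM5 and MCM6 fell by similar amounts, while MCM2 and MCM7 did not pass the test. MCM3 had 47.5 and 46.3 FPKM in the libraries labelled knockdown, against 61.9 and 60.9 FPKM in control, a fall to 0.767 of control (limma adjusted p = 0.00229). MCM4 had 28.4 and 29.3 FPKM in the libraries labelled knockdown, against 37.8 and 38.5 FPKM in control, a fall to 0.762 (limma adjusted p = 0.00261). In each of these genes the controls were the higher pair and the groups stood well apart. MCM5 had 13.7 and 13.2 FPKM in the libraries labelled knockdown, against 17.4 and 18.6 FPKM in control, a fall to 0.761 (limma adjusted p = 0.00599). MCM6, whose promoter above holds 2 runs of E2F-type letters, had 25.2 and 24.8 FPKM in the libraries labelled knockdown and 32.6 and 34.4 FPKM in control, a fall to 0.753 (limma adjusted p = 0.00324).

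MCM2 had 24.04 and 23.5 FPKM in the libraries labelled knockdown, against 24.9 and 25.1 FPKM in control. The groups did not overlap, but the log2 fold change of -0.07 (SE 0.04) missed the threshold (limma adjusted p = 0.190). MCM7, whose introns host the miR-106b-25 cluster, had 65.7 and 64.2 FPKM in the libraries labelled knockdown and 66.0 and 63.3 FPKM in control. Its groups overlapped, at a log2 fold change of 0.01 (SE 0.04, limma adjusted p = 0.915), a value whose sign changed with the scaling between libraries. Ratios between genes of the same library do not depend on a factor that scales a whole library, though quantile normalization can alter them. MCM3 per MCM7 was 0.723 and 0.720 in the libraries labelled knockdown, against 0.938 and 0.962 in control, and MCM6 per MCM7 was 0.383 and 0.387, against 0.494 and 0.544. Neither ratio overlapped between the groups, and with 2 libraries against 2 an exact permutation test cannot give a p below 0.333.

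The ring holds 1 copy of each subunit, but the RNAs stood at unequal levels. The order per exon length was MCM7 (64.9 ± 1.03 FPKM in the libraries labelled knockdown, 64.7 ± 1.91 in control), MCM3 (46.9 ± 0.875 and 61.4 ± 0.706), MCM4 (28.8 ± 0.633 and 38.2 ± 0.477), MCM6 (25.0 ± 0.250 and 33.5 ± 1.27), MCM2 (23.8 ± 0.386 and 25.0 ± 0.142) and MCM5 (13.4 ± 0.390 and 18.0 ± 0.845). In control MCM7 and MCM3 differed by little more than their spread, while in the libraries labelled knockdown they stood apart. FPKM here divides by all annotated exons joined, which understates genes with many alternative exons. Divided by the longest protein-coding transcript instead, a choice made after seeing the data, MCM7 stayed first at 92.3 FPKM in the libraries labelled knockdown and 92.0 FPKM in control. MCM5 then reached 27.9 FPKM in the libraries labelled knockdown and 37.3 FPKM in control, level with MCM6 at 27.6 and 37.0 FPKM. MCM2 then had 32.2 FPKM in the libraries labelled knockdown, above both, and 33.9 FPKM in control, below both. The summed level of the 6 subunits, per joined exon length, was 203 ± 2.29 FPKM in the libraries labelled knockdown and 241 ± 0.113 FPKM in control.

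**Figure D2:**
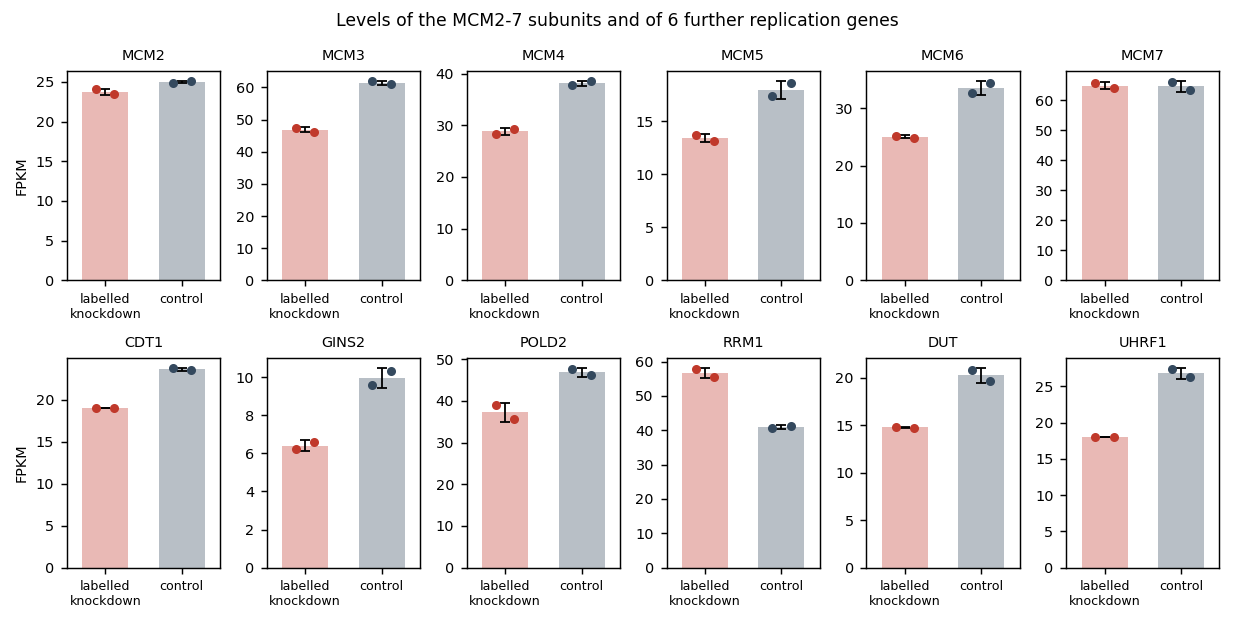
Each panel shows FPKM of 1 gene, with bars for the mean of 2 libraries, whiskers for the SD and points for the libraries, on axes that start at 0. MCM3, MCM4, MCM5 and MCM6 are lower in the libraries labelled knockdown, MCM7 is level at 64.9 against 64.7 FPKM, and RRM1 is higher, at 56.7 against 41.0 FPKM.

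Among the factors that activate the helicase, 1 of 6 fell, 0 rose and 5 did not pass the test. GINS2, a subunit of the GINS complex, had 6.21 and 6.61 FPKM in the libraries labelled knockdown, against 9.60 and 10.3 FPKM in control. Its fall to 0.676 of control was the largest of the 48 genes (log2 fold change -0.56, SE 0.06, limma adjusted p = 0.00376). The other GINS subunits did not follow it past the threshold. GINS1, the highest of the group, had 13.6 and 13.4 FPKM in the libraries labelled knockdown and 14.4 and 13.7 FPKM in control. GINS3, the lowest, had 2.60 and 2.38 FPKM in the libraries labelled knockdown and 3.01 and 2.59 FPKM in control, and GINS4 had 4.91 and 4.67 FPKM against 4.51 and 4.52. CDC45 had a log2 fold change of 0.01 with overlapping groups, and MCM10, which helps the helicase to start, had -0.14 (limma adjusted p = 0.0785).

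In polymerase alpha-primase, which lays down the short RNA-DNA primers, 0 of 4 genes passed the test. POLA1, the catalytic subunit, had 4.54 and 4.76 FPKM in the libraries labelled knockdown and 5.68 and 4.45 FPKM in control, where the controls lay on either side. POLA2, the lowest of all 48 genes, had 1.75 and 1.77 FPKM in the libraries labelled knockdown and 1.64 and 1.65 FPKM in control. PRIM1, the primase catalytic subunit, had 4.26 and 3.87 FPKM in the libraries labelled knockdown, against 6.11 and 4.72 FPKM in control, a log2 fold change of -0.33 with an SE of 0.12 (limma adjusted p = 0.0940). Leaving out control replicate 1 gave -0.18 and leaving out control replicate 2 gave -0.49, and PRIM1 passed the test without control replicate 2 and with voom on recovered reads (limma adjusted p 0.0297 to 0.267 over the alternatives). Per joined exon length, PRIM1 was higher than POLA1 in control, at 5.42 ± 0.986 against 5.06 ± 0.871 FPKM, a gap within their spread. POLA1 was the higher in the libraries labelled knockdown. Divided by the longest protein-coding transcript, PRIM1 was the higher in both groups. It then had 7.11 FPKM against 5.37 for POLA1 in the libraries labelled knockdown, and 9.475 against 5.85 FPKM in control. PRIM2, the large primase subunit, had a log2 fold change of -0.05.

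Polymerases delta and epsilon, which extend the lagging and the leading strand, had 4 of 6 genes that fell and 0 that rose. For all 6, both libraries labelled knockdown lay below both controls. Over all genes tested, 13% fell, and 33.8% had both libraries labelled knockdown below both controls. POLD2, an accessory subunit of polymerase delta, had 38.9 and 35.7 FPKM in the libraries labelled knockdown, against 47.6 and 46.1 FPKM in control (0.800 of control, limma adjusted p = 0.0110). POLD3 had 4.84 FPKM in each library labelled knockdown, against 6.35 and 6.17 FPKM in control (0.804 of control, limma adjusted p = 0.0130). POLD1, the catalytic subunit, had 16.7 and 15.8 FPKM in the libraries labelled knockdown, against 18.7 and 18.6 FPKM in control (0.881 of control, limma adjusted p = 0.0328). Of polymerase epsilon, POLE3, a histone-fold subunit, had 28.0 and 30.6 FPKM in the libraries labelled knockdown, against 35.5 and 33.6 FPKM in control (0.851 of control, limma adjusted p = 0.0345).

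The catalytic subunit POLE had 6.11 and 5.86 FPKM in the libraries labelled knockdown and 6.34 and 6.37 FPKM in control (limma adjusted p = 0.323). POLE2, the lowest of these 6 genes, had 3.04 and 3.69 FPKM in the libraries labelled knockdown and 4.10 and 4.36 FPKM in control (limma adjusted p = 0.0958). POLD1 and POLD3 lost their calls with any 1 library left out (limma adjusted p up to 0.129 and 0.0730 over the alternatives). POLD2 lost its call without control replicate 1 (up to 0.0564), and POLE3 without knockdown replicate 1 or either control (up to 0.136).

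The sliding clamp PCNA, which tethers polymerases to DNA, had the highest level of the 48 genes and did not pass the test. It had 198 and 194 FPKM in the libraries labelled knockdown and 204 and 199 FPKM in control (log2 fold change -0.04, SE 0.03, limma adjusted p = 0.369). The RFC complex loads PCNA, and its subunits went in different directions. RFC1 had 17.9 and 17.4 FPKM in the libraries labelled knockdown, against 14.8 and 15.7 FPKM in control, a rise of 1.15-fold (limma adjusted p = 0.0322). RFC4 had 11.7 and 11.2 FPKM in the libraries labelled knockdown, against 13.6 and 13.4 FPKM in control, a fall to 0.858 (limma adjusted p = 0.0196). Neither pair overlapped, yet neither call held with any 1 library left out (limma adjusted p up to 0.131 for RFC1 and 0.0907 for RFC4 over the alternatives). RFC2 and RFC5 had log2 fold changes of 0.02 and -0.15, and RFC3, the lowest of the group, had 8.97 and 9.54 FPKM in the libraries labelled knockdown and 10.7 and 9.19 FPKM in control.

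Okazaki fragments are trimmed by the flap nuclease FEN1 and joined by the ligase LIG1. FEN1 had 32.0 and 33.8 FPKM in the libraries labelled knockdown, against 37.7 and 39.4 FPKM in control, a fall to 0.857 (limma adjusted p = 0.0215) that was lost without knockdown replicate 1 or either control (limma adjusted p up to 0.0898 over the alternatives). LIG1 had 9.44 and 9.004 FPKM in the libraries labelled knockdown and 8.75 and 8.93 FPKM in control (limma adjusted p = 0.435). None of the 3 subunits of RPA, which coats single-stranded DNA, passed the test, with log2 fold changes from -0.11 to -0.06. RPA1, the highest, had 29.6 and 28.5 FPKM in the libraries labelled knockdown and 30.2 and 30.3 FPKM in control, and RPA3, the lowest, had 9.48 and 10.6 FPKM against 11.5 and 10.5.

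Of the 5 nucleotide genes, RRM1 rose, DUT fell and RRM2, TYMS and TK1 did not pass the test. Ribonucleotide reductase makes deoxyribonucleotides from a large subunit, RRM1, and a small subunit, RRM2. RRM1 had 57.7 and 55.6 FPKM in the libraries labelled knockdown, against 40.6 and 41.3 FPKM in control, a rise of 1.37-fold (log2 fold change 0.46, SE 0.03, limma adjusted p = 0.00187). RRM2 had 47.3 and 43.4 FPKM in the libraries labelled knockdown and 47.8 and 50.5 FPKM in control (log2 fold change -0.11, SE 0.05, limma adjusted p = 0.176). RRM1 per RRM2 was thus 1.22 and 1.28 in the libraries labelled knockdown, against 0.850 and 0.817 in control. Per joined exon length, RRM1 was therefore the higher of the pair in the libraries labelled knockdown and RRM2 in control. The tested genes on either side of RRM1 in the genome had a median log2 fold change of 0.35, beside its own 0.46. For RRM2 this neighbour median was 0.06, beside its own -0.11. The part of the neighbourhood in the RRM1 level, and so in the ratio, was not tested.

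DUT, the enzyme that removes dUTP and so keeps uracil out of DNA, had 14.8 and 14.7 FPKM in the libraries labelled knockdown, against 20.8 and 19.7 FPKM in control. It fell to 0.743 of control (log2 fold change -0.43, SE 0.04, limma adjusted p = 0.00343). DUT has 8 annotated pseudogenes, whose highest mean was 0.184 FPKM. TK1, the thymidine salvage kinase and the highest of the 5, had 93.1 and 92.4 FPKM in the libraries labelled knockdown and 88.8 and 88.6 FPKM in control (limma adjusted p = 0.143). TYMS, which makes thymidylate, had 23.5 and 22.0 FPKM in the libraries labelled knockdown and 24.2 and 19.4 FPKM in control, where the controls lay on either side. Antisense ENOSF1 covers 39.1% of the annotated exon bases of TYMS, and without a stated strand setting reads of the 2 genes cannot be told apart.

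Both genes of methylation maintenance fell. UHRF1, which reads hemimethylated DNA behind the fork, had 18.0 and 18.1 FPKM in the libraries labelled knockdown, against 27.3 and 26.3 FPKM in control, a fall to 0.685 (log2 fold change -0.55, SE 0.04, limma adjusted p = 0.00166). DNMT1, the methyltransferase that UHRF1 brings to such sites, had 24.4 and 24.3 FPKM in the libraries labelled knockdown, against 30.4 and 30.3 FPKM in control, a fall to 0.810 (log2 fold change -0.30, SE 0.03, limma adjusted p = 0.00400). The pairs stood apart in both genes. UHRF1 per DNMT1 was 0.738 and 0.743 in the libraries labelled knockdown, against 0.898 and 0.869 in control.

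The value of each gene was set beside those of its neighbours in the genome. For each gene, the median log2 fold change of the 15 tested genes on either side was taken on GRCh38. Near chromosome ends there were fewer, 25 in all for POLE and 18 for TYMS. Over all genes tested, the 5th and 95th percentiles of this neighbour median were -0.11 and 0.19. Only RRM1, ORC5, MCM7 and RFC3, of the 48, lay above the 95th percentile, and 0 lay below the 5th. RRM1 (chromosome 11, 4094707 to 4138876) had neighbours at 0.35 beside its own 0.46. ORC5 (chromosome 7, 104126341 to 104208047) had neighbours at 0.30 beside its own 0.18. MCM7 (chromosome 7, 100092728 to 100101940) had neighbours at 0.24 beside its own 0.01, and RFC3 (chromosome 13, 33818049 to 33966558) had neighbours at 0.28 beside its own -0.09.

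These 4 genes are those inside stretches that earlier results of these data had shown higher as a whole. Those results came from the same libraries, so the high neighbour medians are not a separate observation. Less the neighbour median, MCM7 stood at -0.24, RFC3 at -0.37, ORC5 at -0.13 and RRM1 at 0.11. The genes that fell had neighbours between -0.09 and 0.08, GINS2 having the highest. Among the 44 genes outside the stretches, 17 fell (38.6%) and 1 rose (2.27%). Over all genes tested, those inside the stretches included, 13% fell and 16.8% rose. The part of the neighbourhood in the level of these 4 genes was not tested.

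**Figure D3:**
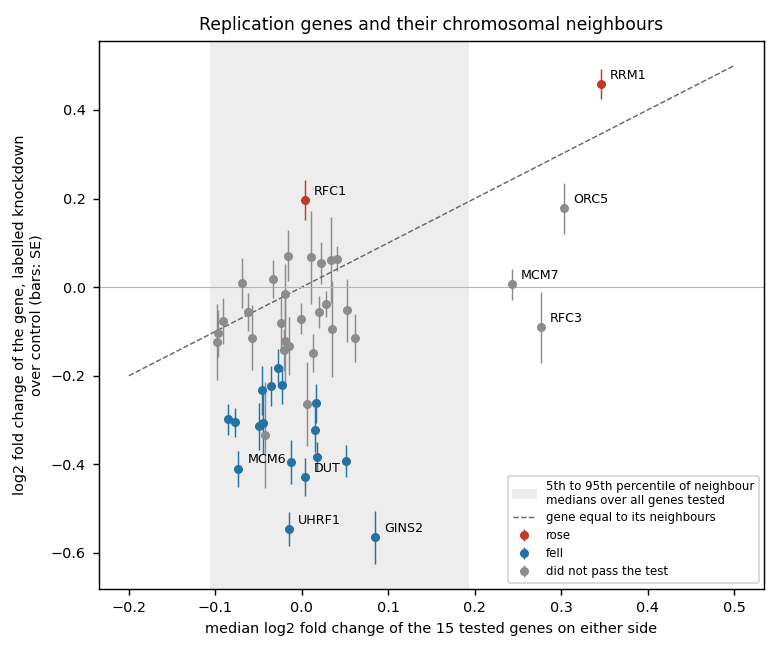
The x axis is the median log2 fold change of up to 15 tested genes on either side of each replication gene. The y axis is its own log2 fold change with its SE. The grey band spans -0.11 to 0.19, and RRM1, ORC5, MCM7 and RFC3 are the 4 genes to its right, the last 3 below the line of equality.

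Genes that surround replication in the cell were counted from 6 lists, whose shares stand beside the 13% of all genes tested that fell and the 16.8% that rose. Of 20 genes of licensing control and origin firing, 6 fell (30%) and 1 rose (5%), at a median log2 fold change of -0.11. CDC25A, the phosphatase that activates CDK2, fell to 0.801 of control, CDC7, the kinase that fires origins, to 0.774, and the S-phase cyclin CCNA2 to 0.895 (limma adjusted p = 0.00818, 0.0188 and 0.0216). The helicase RECQL4, on chromosome 8 with a neighbour median of 0.51, rose 1.23-fold (limma adjusted p = 0.0146). Of 23 fork and chromatin assembly genes tested, 5 fell (21.7%) and 1 rose (4.35%), at a median of -0.07. TOP2A, a topoisomerase, fell to 0.851 (limma adjusted p = 0.0166), and ASF1B and CHAF1B, histone chaperones, fell to 0.898 and 0.816 (0.0223 and 0.0239). POLD4, the smallest subunit of polymerase delta, had 4.09 and 3.91 FPKM in the libraries labelled knockdown, against 2.41 and 2.20 FPKM in control, a rise of 1.51-fold (limma adjusted p = 0.00608). The other subunits of that polymerase, POLD1, POLD2 and POLD3, fell.

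Of 24 further nucleotide enzymes, 11 fell (45.8%) and 2 rose (8.33%), at a median of -0.16. SAMHD1, which breaks down deoxyribonucleotides and is known as an interferon-induced gene, had 2.59 and 2.55 FPKM in the libraries labelled knockdown, against 5.35 and 5.25 FPKM in control (0.566 of control, limma adjusted p = 0.00189). CAD, which starts pyrimidine synthesis, fell to 0.760, the uridine kinase UCK2 to 0.788 and IMPDH2, which commits purines to guanine nucleotides, to 0.858 (limma adjusted p = 0.00264, 0.00579 and 0.00608). Of 25 E2F and RB factors tested, 8 fell (32%) and 4 rose (16%), at a median of -0.14; the share that rose was near that of all genes tested. E2F1 had 13.1 and 13.6 FPKM in the libraries labelled knockdown, against 18.3 and 17.8 FPKM in control (0.755 of control, limma adjusted p = 0.00355).

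CDKN1A, the CDK inhibitor p21, which also binds PCNA, had 485 and 439 FPKM in the libraries labelled knockdown, against 314 and 327 FPKM in control, a rise of 1.44-fold (limma adjusted p = 0.00381). CDKN1C, a related inhibitor, rose 1.47-fold (limma adjusted p = 0.00489), and CDK6, with a neighbour median of 0.28, rose 1.30-fold (0.00381). The other CDK inhibitor genes tested among the E2F and RB factors did not rise. CDKN1B and CDKN2C fell, and CDKN2D did not pass the test. Whether the calls of CDKN1B and CDKN2C held with a library left out is not given here. Of 11 checkpoint genes, 4 fell (36.4%) and 1 rose (9.09%), at a median of -0.17. HUS1, part of the clamp that signals damaged forks, rose 1.33-fold, and the kinases ATM and CHEK2 and the ATR partner ATRIP fell to 0.832, 0.785 and 0.821 (limma adjusted p = 0.00700, 0.0302, 0.0335 and 0.0333).

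Of 29 G2/M genes tested, 16 fell (55.2%), 0 rose and 13 did not pass the test, CDK1, AURKA and AURKB among them (median -0.17). CDC20 and CCNB1, which drive and time mitosis, fell to 0.773 and 0.786 of control, and UBE2C and HMMR to 0.813 and 0.754 (limma adjusted p = 0.00191, 0.00346, 0.00866 and 0.0128). The 30 listed G2/M genes summed to 720 and 724 FPKM in the libraries labelled knockdown and 837 and 812 FPKM in control. Of the genes named from these 6 lists, the calls of RECQL4, CDC7, CCNA2, TOP2A, ASF1B, CHAF1B, ATM, ATRIP, CHEK2 and HMMR were lost with at least 1 of the 4 libraries left out, and control replicate 1 was one of these for each (limma adjusted p up to 0.129 over the alternatives). With 1 library left out, 15 (without control replicate 1) to 21 (without knockdown replicate 2 or control replicate 2) of the genes in these lists fell, against 50 with all 4, and 17 without knockdown replicate 1. The part of the share of dividing cells in the values of the replication genes was not tested.

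**Figure D4:**
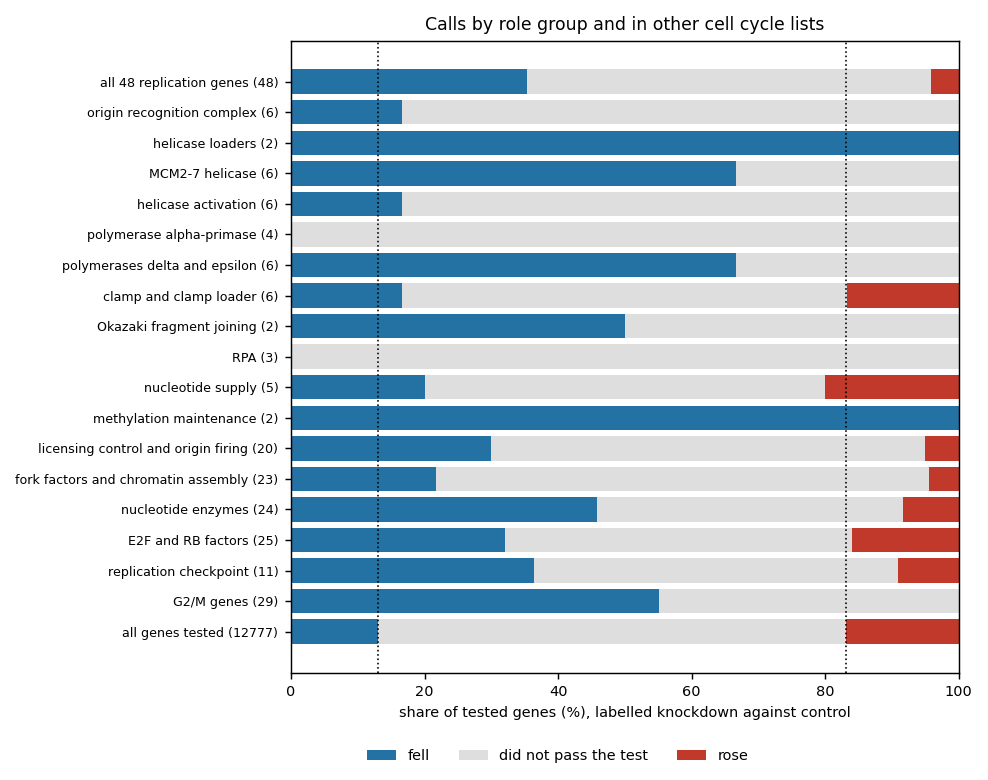
Bars give the share of tested genes that fell (left), did not pass the test (middle) or rose (right), with the number tested in brackets, for the 48 genes, their role groups, 6 other lists and all genes tested. Dotted lines mark the shares over all genes tested, 13% that fell and 16.8% that rose; both helicase loaders and both methylation genes fell, and 0 of 4 polymerase alpha-primase genes did.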

How the data were processed

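The authors deposited FPKM per gene in 1 table for each of the 4 libraries. Per the submitters' processing notes, reads went through HISAT2 2.0.5, with hg18 as the named build. No source used here gives the counting tool, strand setting or filters. All 58735 gene IDs matched GENCODE 29, so coordinates are on GRCh38. FPKM times joined exon length gave whole reads, within 0.01 of a read, for 100% of values above 0, and these recovered reads give the totals. The median-of-ratios factor was the same in all 4 libraries (1.003), so the deposited FPKM already stood on that scale.

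The 12777 genes whose mean FPKM reached 1 were fitted with limma-trend (limma 3.58.1, R 4.3.3) on log2(FPKM + 1), with the group as the only term and 2 residual degrees of freedom. The fit was run on simulated reads with fewer changed genes, and larger changes, than most of those seen here. That run therefore does not measure its error rates on these data. Libraries of a group differed by more than sampling noise (chi-square per gene 2.38 in the libraries labelled knockdown, 2.51 in control). The members and lists were chosen with earlier results of these data known, so list counts stand without a test. Values of every library are given for called members and for the highest and lowest of each role group. From other lists up to 4 genes with the smallest p are given with fold changes, and some others are only named. Alternatives were another pseudocount (0.1), other filters, other scalings, limma-voom on recovered reads, a stricter threshold, the replicate number as a block, and each library left out. Tables and plots used Python 3.11.15, pandas 2.3.3, numpy 2.4.6 and matplotlib 3.10.9.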

Additional observations from a re-analysis of the deposited data

How the results depend on the processing

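Of the 48 genes, 17 fell and 2 rose, against 11 and 1 when genes were not filtered by level, 9 and 1 at an adjusted p under 0.01, and 11 to 12 and 1 with 1 library left out. With the replicate number as a block (replicate block) the numbers were 15 and 1, and 1899 rose and 1405 fell over all genes. Same-numbered libraries did not deviate together over the genes as a whole (Pearson r -0.00206 across 12777 genes, which are not independent). With so few libraries a group, this cannot show whether they share more than a number. RFC1 was the rise that was lost in these settings. Outside the shifted stretches 1 rose. Over all genes 2152 rose and 1662 fell, against 1134 and 734 with no filter, 927 and 589 at an adjusted p under 0.01, 1141 to 1345 and 775 to 919 with 1 library left out, and 2502 and 2709 with voom. In the 6 other lists 50 of 132 tested genes fell, against 16 with no filter, 11 at an adjusted p under 0.01 and 15 to 21 with 1 library left out. With no filter more genes were tested (28965), and with a library left out fewer samples were. The cause of the voom count was not tested. Calls were gained by ORC5 (mean FPKM of at least 5), RFC5 (that filter, quantile normalization and voom), PRIM1 (voom and without control replicate 2), and MCM10, POLE2 and RRM2 (voom).

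Among the replication genes the sign of the log2 fold change turned in 8, none of which passed the test. With quantile normalization MCM7, CDC45 and RFC2 had -0.0484, -0.0124 and -0.0188, with voom -0.0169, -0.0142 and -0.00677, and scaled to non-mitochondrial reads MCM7 had -0.00194. With 1 library left out the lowest and highest values were -0.0237 and 0.0357 for MCM7 (-0.00986 without knockdown replicate 1), -0.0541 and 0.0732 for CDC45 (-0.0105 without control replicate 1), -0.0174 and 0.0530 for RFC2, -0.0815 and 0.0522 for ORC2 (0.00667 without knockdown replicate 1), -0.242 and 0.0522 for POLA1, -0.108 and 0.00276 for PRIM2, -0.191 and 0.00913 for RFC3, and -0.0847 and 0.220 for TYMS. Depth limits the low genes, since POLA2 and POLE2 rest on 155 to 253 reads a library.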

Other observations

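Some further E2F-linked genes were looked up after the values were seen. CCNE2, a cyclin that opens S phase, had 3.31 and 2.72 FPKM in the libraries labelled knockdown, against 4.15 and 4.32 FPKM in control (0.765 of control, limma adjusted p = 0.0349), while its paralog CCNE1 had a fold change of 0.958 (0.388). E2F2 and E2F8 fell to 0.836 and 0.843 of control (limma adjusted p = 0.0207 and 0.0172), and E2F3, E2F4 and E2F7 had fold changes of 1.05, 1.01 and 0.945 that did not pass the test. With 1 library left out, the calls of CCNE2, E2F2 and E2F8 were lost without knockdown replicate 2 or either control, and that of E2F2 also without knockdown replicate 1 (limma adjusted p up to 0.131).

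CCAAT letters, searched on both strands, stood in a RefSeq window of 24 of 42 replication genes (57.1%), against 39.7% of all genes in the table. Of the 24 genes with a match 7 fell and 2 rose, and of the 18 without 7 fell and 0 rose.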
